A study of Homo sapiens with 24 samples.

Results

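The transcripts of 7 ligands of the EGF receptor and 3 receptors of the ERBB family were followed through 8 groups of HCT116 cells, a human colorectal carcinoma line. WT cells, which carried an inducible OsTIR1 and no degron, were set beside lines with a degron on UHRF1 (UHRF1-AID), on DNMT1 (DNMT1-AID), or on both proteins (the double line). Each line was sequenced as 3 libraries before auxin (day 0) and 3 libraries after 4 days of auxin (day 4), 24 in all. The auxin protocol gave 2 µg/mL doxycycline with 20 µM auxinole for 1 day, then doxycycline with 500 µM auxin. The 10 genes, of 58735 in each table, were chosen by their symbols, and EREG and AREG were selected on their loss in depleted cells in earlier results from these same libraries. For that reason their values at day 4 against WT are a description, and no test is given for that contrast. For these 2 genes, the same holds for the comparisons of day 4 with day 0 of a line and for those among the depleted lines at day 4. Their choice did not rest on the day 0 libraries, and these were tested. A difference that a line shows on both days would enter both, so these tests are not independent of the choice.

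The ERBB receptors are tyrosine kinases of the cell surface that pair up when a ligand binds and that signal through RAS and ERK. Epiregulin (EREG), amphiregulin (AREG), HBEGF, TGFA, betacellulin (BTC), epigen (EPGN) and EGF are made as membrane proteins and are released when a protease cuts them. All 7 bind EGFR, and HBEGF, BTC and EREG also bind ERBB4. ERBB2 has no known ligand of its own, and ERBB3 has a weak kinase, binds neuregulins and works through its partners. UHRF1 and DNMT1 together copy DNA methylation onto new strands, so their loss lowers methylation with each division. Protein, cut ligand, receptor phosphorylation and DNA methylation were not measured in these libraries.

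Counts assigned to genes ran from 15824804 to 25073821 per library. At day 0 they were 18883942 to 19778281 in WT, 18630957 to 25073821 in UHRF1-AID, 20609617 to 21952477 in DNMT1-AID and 22740070 to 23972076 in the double line. At day 4 they were 16025660 to 16249481 in WT, 17776768 to 19991383 in UHRF1-AID, 15824804 to 16987046 in DNMT1-AID and 15936193 to 16645939 in the double line. The file headers name 2 alignment folders: 15 libraries (day 0 of every line and UHRF1-AID at day 4) sit in 1, and the other 9 sit in the other. Those 9 libraries also hold counts on ERCC spike-in sequences, from 0.891 to 1.65 percent. The day effects of WT, DNMT1-AID and the double line, and the day 4 comparison of UHRF1-AID with any other line, cross the folders. In them a difference between lines or days cannot be told apart from a difference between folders.

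In 3 day 0 libraries, counts fell with gene length relative to the mean of the day 0 libraries: WT replicate 3 (rank correlation -0.375), DNMT1-AID replicate 1 (-0.401) and DNMT1-AID replicate 2 (-0.314). Others rose with it, among them WT replicates 1 and 2 (0.427 and 0.416) and UHRF1-AID replicates 1, 2 and 3 (0.440, 0.234 and 0.381). The mean is shared, so these values do not show which libraries are atypical. At day 0 the transcripts of EGFR and ERBB2, though not of ERBB3, were lowest in the 3 libraries whose counts fell, as described below. Day 0 values of WT and DNMT1-AID are therefore given library by library where they matter.

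The degrons act on protein, so transcript levels of UHRF1 and DNMT1 do not check the depletion. UHRF1 transcripts stood at 73.7 ± 20.5 in WT at day 0 and 25.2 ± 8.14 at day 4, in CPM (mean ± SD of 3 libraries). In UHRF1-AID they were 171 ± 24.6 and 52.7 ± 26.3, in DNMT1-AID 69.1 ± 33.5 and 36.5 ± 3.52, and in the double line 151 ± 63.7 and 44.7 ± 15.8. DNMT1 transcripts on the same 2 days were at 143 ± 57.1 and 30.9 ± 12.1 for WT, 182 ± 12.1 and 43.1 ± 19.7 for UHRF1-AID, 44.7 ± 25.4 and 15.2 ± 1.85 for DNMT1-AID, and 66.4 ± 22.0 and 12.3 ± 2.69 for the double line. Both transcripts were thus lower at day 4 than at day 0 in every line, WT included, and already at day 0 the mean of DNMT1 was lower in the 2 lines with a tag on it, though WT replicate 3 (76.9) lay within the double line (41.02 to 80.6).

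The label of colorectal cancer cells was set beside marker genes written down as lists. Summed over 8 colorectal epithelial markers, libraries held 4208 to 8956 CPM (counts scaled to equal library totals), with KRT8 (1611 to 3245) and KRT19 (1493 to 4078) the most abundant. VIL1 of the same list had no count in 12 libraries. Markers of leukocytes (3 genes) summed to at most 0.828 and of endothelium (2 genes) to at most 1.90. The 4 fibroblast markers summed to between 1.47 and 20.0, nearly all of it COL1A1 at 1.30 to 19.3, while COL1A2 had no count in 20 libraries and DCN in 16.

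EREG, AREG, EPGN and BTC lie within a single stretch of chromosome 4, and the promoters of EREG, AREG and HBEGF, the ligands called in the double line before auxin, are printed here because the lines lose the machinery that keeps CpG sites methylated. EREG (ENSG00000124882) runs from 74365143 to 74388751 on the plus strand of chromosome 4, and AREG (ENSG00000109321) from 74445134 to 74455009 on the same strand. HBEGF (ENSG00000113070) lies on the minus strand of chromosome 5, from 140332843 to 140346631. The 250 bases upstream of the RefSeq start, which can differ from the gene ends in the count files (several windows, that of HBEGF among them, reach into the spans given here), were taken from RefSeq GRCh38.p14: chr4:74364895-74365144 for EREG, chr4:74444886-74445135 for AREG and chr5:140346604-140346853 for HBEGF, each shown 5' to 3' on the gene's strand with CpG in capitals.

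EREG: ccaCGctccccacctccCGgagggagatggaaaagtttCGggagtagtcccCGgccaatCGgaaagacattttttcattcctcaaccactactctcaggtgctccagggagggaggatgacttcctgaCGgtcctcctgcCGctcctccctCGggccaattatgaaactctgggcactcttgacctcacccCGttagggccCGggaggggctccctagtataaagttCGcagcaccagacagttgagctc
AREG: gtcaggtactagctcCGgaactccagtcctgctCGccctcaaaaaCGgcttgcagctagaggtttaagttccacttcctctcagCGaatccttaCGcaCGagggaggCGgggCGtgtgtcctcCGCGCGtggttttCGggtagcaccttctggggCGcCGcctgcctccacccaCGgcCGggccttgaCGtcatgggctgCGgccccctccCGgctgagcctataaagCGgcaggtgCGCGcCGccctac
HBEGF: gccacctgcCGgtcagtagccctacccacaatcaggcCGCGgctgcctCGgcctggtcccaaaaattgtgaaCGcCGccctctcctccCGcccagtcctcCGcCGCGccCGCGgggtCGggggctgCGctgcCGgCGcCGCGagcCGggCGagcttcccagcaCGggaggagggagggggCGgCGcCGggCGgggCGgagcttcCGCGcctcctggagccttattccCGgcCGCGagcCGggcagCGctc

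The EREG window held 11 CpG sites, equal to the median of 11 over 35116 promoter windows of the same length. AREG held 23 and HBEGF 33, more than in 74.2 and 91.9 percent of windows. EREG and AREG each carried a TATA box, TATAAA, with its first base 32 and 29 bases before the start, and HBEGF carried none. AREG also carried a palindromic cAMP response element, TGACGTCA, 65 bases before the start, and 1 match to GGGCGG, the core bound by SP1, of which HBEGF held 5. Over all windows, on either strand, TATAAA occurred in 10.7 percent, TGACGTCA in 1.65 percent, TGAGTCA (the AP-1 site, absent from all 3) in 4.20 percent and GGGCGG in 42.6 percent. The other windows held 27 and 20 CpG sites for the 2 starts of TGFA, 8 for BTC, 3 for EPGN, 3 for EGF, 25 and 1 for the 2 starts of EGFR and 23 for ERBB2, and ERBB3 had no matching window. What these sequences do in the cells was not tested.

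EREG was an abundant transcript in WT cells before auxin and was lowest in the double line at day 4. In WT its CPM were 1501, 1531 and 1744 at day 0 and 958, 912 and 794 at day 4. In UHRF1-AID they were 1381, 848 and 1179 at day 0 and 286, 271 and 205 at day 4. In DNMT1-AID they were 1327, 1809 and 897 at day 0 and 540.2, 608 and 504 at day 4. At day 4 every library of each line lay below every day 0 library of the same line, and the 3 depleted lines lay below WT without overlap. EREG in the double line stood at 856, 605 and 783 at day 0 and 128, 140.4 and 125 at day 4. All 3 of its day 0 libraries were below all 3 of WT at day 0, and at day 4 its libraries were the lowest of the 24. From high to low, group means ran WT day 0 (1592), DNMT1-AID day 0 (1345), UHRF1-AID day 0 (1136), WT day 4 (888), double line day 0 (748), DNMT1-AID day 4 (551), UHRF1-AID day 4 (254) and double line day 4 (131). The gaps among the first 4 groups were within the spread and the others over it, and the last 3 groups did not overlap one another.

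AREG was also abundant and showed a shallower slope across the groups. In WT it stood at 571, 644 and 635 at day 0 and at 494, 452 and 421 at day 4. In UHRF1-AID it stood at 346, 288 and 258 at day 0 and at 155, 173 and 122 at day 4. All UHRF1-AID libraries, of either day, were below all WT libraries. In DNMT1-AID it stood at 335, 647 and 196 at day 0 and at 321, 404 and 267 at day 4. The day 0 libraries of DNMT1-AID spread widely, from above every WT library to the level of the double line at day 0. Their range overlapped the other groups except UHRF1-AID and the double line at day 4, which lay below it. AREG in the double line stood at 230.1, 156 and 174 at day 0 and at 130.5, 131 and 116 at day 4, below every WT library on both days. Means ran WT day 0 (616), WT day 4 (456), DNMT1-AID day 0 (393), DNMT1-AID day 4 (331), UHRF1-AID day 0 (297), double line day 0 (187), UHRF1-AID day 4 (150.04) and double line day 4 (126). Neighbours in this order differed by more than their spread only between WT day 0 and WT day 4, and between UHRF1-AID day 0 and the double line at day 0.

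HBEGF, a ligand with an affinity for heparin, took another course: it was lowest in the double line before auxin and highest after auxin in the 2 lines that lose UHRF1. In WT it stood at 10.3, 9.52 and 10.1 at day 0 and at 10.9, 10.1 and 10.5 at day 4. In UHRF1-AID it stood at 10.05, 4.84 and 6.10 at day 0 and at 17.2, 17.7 and 15.1 at day 4. WT libraries of the 2 days overlapped, and the UHRF1-AID libraries at day 4 were above every library of WT. In DNMT1-AID it stood at 5.30, 8.59 and 4.65 at day 0 and at 9.92, 10.7 and 10.4 at day 4, a level within the range of WT. HBEGF in the double line stood at 3.72, 3.45 and 3.35 at day 0, below every other library, and at 13.4, 15.6 and 14.5 at day 4, above every WT library. Means ran UHRF1-AID day 4 (16.7), double line day 4 (14.5), WT day 4 (10.5), DNMT1-AID day 4 (10.3), WT day 0 (9.98), UHRF1-AID day 0 (6.995), DNMT1-AID day 0 (6.18) and double line day 0 (3.51). Within the span from WT day 4 to WT day 0, and between UHRF1-AID and DNMT1-AID at day 0, neighbours were closer than their spread.

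**Figure D1:**
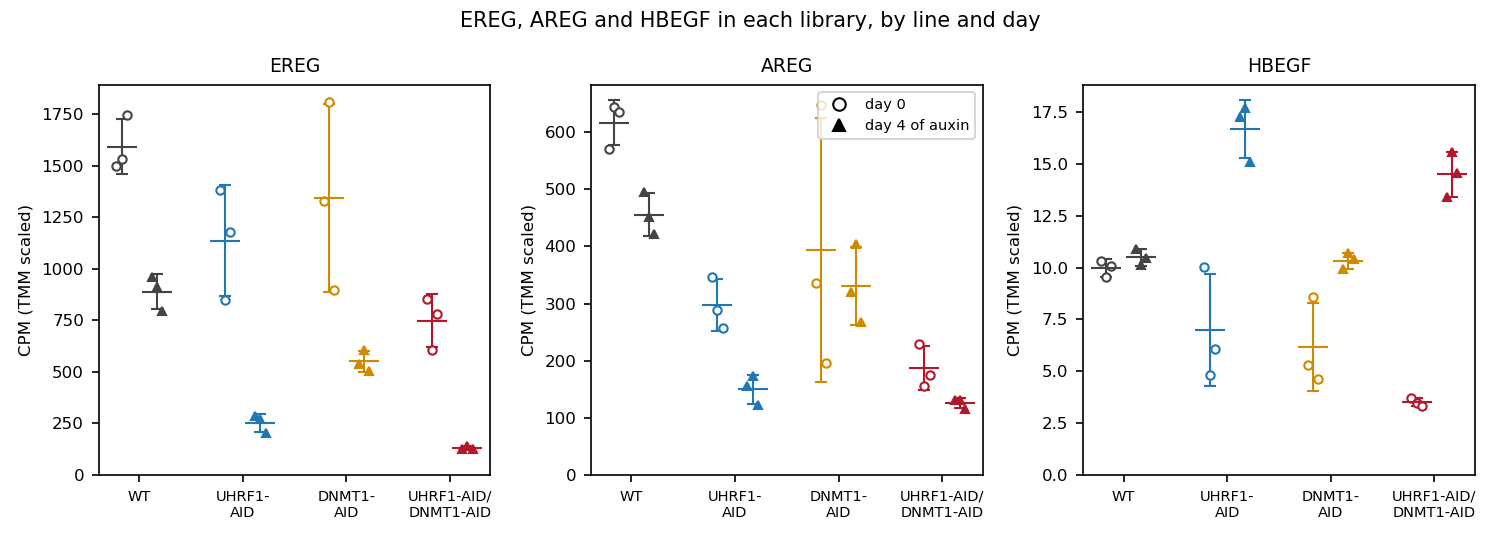
EREG, AREG and HBEGF in CPM in each of the 24 libraries, by line, with open circles for day 0 and filled triangles for day 4. Bars give the mean and SD of 3 libraries.

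TGFA, a ligand that carcinoma cells often make for themselves, was higher at day 4 than at day 0 in every line, with no overlap between the days. Its day 0 means were 86.4 ± 4.42 for WT, 74.4 ± 7.83 for UHRF1-AID, 87.5 ± 7.50 for DNMT1-AID and 72.0 ± 7.18 for the double line. Its day 4 means were 139 ± 14.9 for WT, 143 ± 20.8 for UHRF1-AID, 129 ± 8.98 for DNMT1-AID and 121 ± 5.94 for the double line. Of the day 4 groups, UHRF1-AID lay above the double line without overlap, and the other pairs overlapped.

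BTC, on the minus strand of chromosome 4 from 74744759 to 74794686 (ENSG00000174808), followed TGFA at a far lower level. Its means at day 0 were 6.54 ± 0.400 for WT, 6.22 ± 0.574 for UHRF1-AID, 7.01 ± 1.64 for DNMT1-AID and 4.92 ± 0.296 for the double line. At day 4 they were 13.3 ± 2.28 for WT, 12.8 ± 4.99 for UHRF1-AID, 18.4 ± 3.75 for DNMT1-AID and 13.8 ± 5.16 for the double line. The day 4 groups overlapped, and at day 0 the double line was below the other lines without overlap. UHRF1-AID replicate 1 (8.04) and double line replicate 3 (7.99) were the lowest of the day 4 libraries.

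EGF (ENSG00000138798, chromosome 4, 109912884 to 110012266) and EPGN (ENSG00000182585, chromosome 4, 74308473 to 74315307) were close to absent. In WT, EGF had 1, 2 and 2 counts at day 0 and 11, 12 and 13 at day 4, a ratio of 8.69 after scaling by library totals with a 95% counting interval of 3.40 to 28.4. EGF means were 0.0879, 0.288, 0.2503 and 0.174 CPM at day 0 (WT, UHRF1-AID, DNMT1-AID, double line) and 0.735, 0.712, 0.953 and 0.510 at day 4. The lines overlapped at day 0, and at day 4 the double line was below WT and DNMT1-AID without overlap. EPGN had 0 to 8 counts per library and none in 7 of the 24, so it was too low to test in any comparison.

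The 3 receptor transcripts were present in all 8 groups, and most groups overlapped. EGFR (ENSG00000146648, chromosome 7, 55019021 to 55211628) stood at 65.6, 62.7 and 25.8 CPM in WT at day 0 and at 38.0, 47.0 and 67.5 at day 4. In UHRF1-AID it stood at 62.9, 58.2 and 61.6 at day 0 and at 107, 42.2 and 71.5 at day 4. In DNMT1-AID it stood at 26.8, 31.1 and 51.8 at day 0 and at 66.1, 112 and 54.6 at day 4. The 3 lowest libraries of EGFR at day 0 were the 3 whose counts fell with gene length, and at day 4 UHRF1-AID replicate 1 and DNMT1-AID replicate 2 were the highest. The double line had 77.7, 58.5 and 63.5 at day 0 and 42.1, 45.1 and 46.5 at day 4, with no overlap between the days.

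ERBB2 (ENSG00000141736, chromosome 17, 39687914 to 39730426), the receptor amplified in part of breast and gastric cancers, stood at 73.6, 69.0 and 40.3 in WT at day 0 and at 48.2, 53.9 and 77.5 at day 4. In UHRF1-AID it stood at 62.2, 71.8 and 59.0 at day 0 and at 73.4, 53.1 and 79.3 at day 4. In DNMT1-AID it stood at 43.0, 46.5 and 61.9 at day 0 and at 83.8, 102 and 77.7 at day 4. The day 4 libraries of DNMT1-AID were above its day 0 libraries, while WT and UHRF1-AID libraries of the 2 days overlapped, and the same 3 libraries were lowest at day 0 as for EGFR. Means of ERBB2 in the double line were 74.98 ± 3.12 and 77.6 ± 7.56. ERBB3 (ENSG00000065361, chromosome 12, 56076799 to 56103505) had day 0 means of 36.9 ± 3.39 for WT, 33.3 ± 2.42 for UHRF1-AID, 33.2 ± 0.275 for DNMT1-AID and 31.2 ± 0.748 for the double line. Its day 4 means were 35.3 ± 2.31, 37.2 ± 4.81, 38.4 ± 2.22 and 27.1 ± 2.95 in the same order, and the double line at day 4 was below every library of the other day 4 groups. Exons of ERBB2 share 571 bases with MIEN1 and 194 with PGAP3 on the opposite strand, those of EGFR 186 bases with EGFR-AS1, and how the counting treated such bases is not stated.

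**Figure D2:**
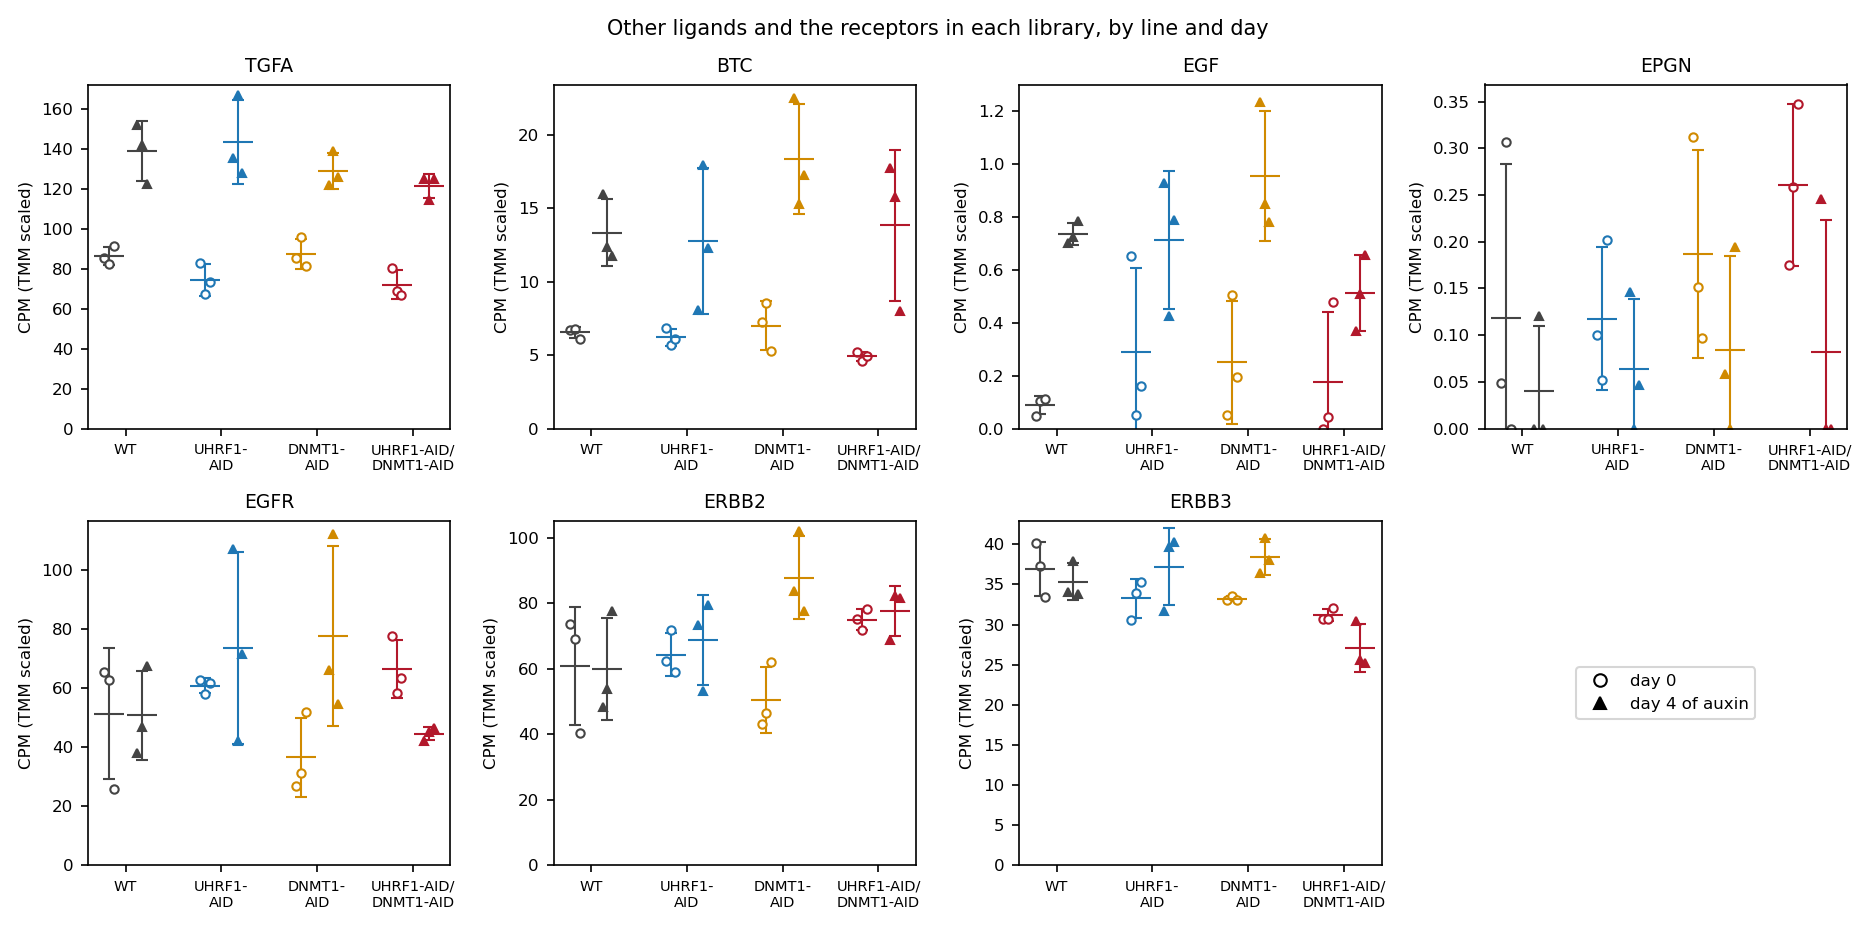
TGFA, BTC, EGF, EPGN, EGFR, ERBB2 and ERBB3 in CPM in each library, by line and day. Bars give the mean and SD of 3 libraries.

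Taken per transcript length, AREG and EREG made up nearly the whole ligand message of cells before auxin. In WT at day 0, AREG stood at 1214 and EREG at 899.8 TPM, and in the double line at day 4 AREG stood at 213 and EREG at 63.7. The 7 ligands summed to 2188 ± 158 TPM for WT at day 0, 1341 ± 270.4 for UHRF1-AID, 1463 ± 599 for DNMT1-AID and 818 ± 164 for the double line. At day 4 they summed to 1435 ± 75.5 for WT, 592 ± 83.2 for UHRF1-AID, 942 ± 152 for DNMT1-AID and 372 ± 16.9 for the double line. EREG and AREG held 96.6, 95.1, 95.0 and 93.2 percent of that sum at day 0 (WT, UHRF1-AID, DNMT1-AID, double line), and 92.2, 77.5, 89.0 and 74.3 percent at day 4. The share of EREG alone at day 0 was 41.2 percent for WT, 49.5 for UHRF1-AID, 48.95 for DNMT1-AID and 50.02 for the double line, and at day 4 it was 33.2, 25.4, 29.1 and 17.2 percent in the same order, while AREG kept between 43.2 and 59.9 percent in all 8 groups. TGFA held 2.58 percent for WT at day 0, and at day 4 held 5.97 percent for WT, 16.6 for UHRF1-AID, 7.88 for DNMT1-AID and 18.3 for the double line.

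Before any auxin, the double line already differed from WT in 3 ligands, all of them lower. EREG, AREG and HBEGF were each reduced, with AREG reduced the most. In the single lines the same 3 ligands had lower means, but edgeR called no member. These comparisons lie within 1 alignment folder. Against WT, AREG in the double line fell by 1.74 on the log2 scale (standard error 0.16, adjusted p = 0.00640 by the edgeR quasi-likelihood test with Benjamini-Hochberg adjustment), with 3 of 3 libraries below WT. HBEGF fell by 1.53 (0.15, adjusted p = 0.00647 by the same edgeR test), and again 3 of 3 libraries were below WT. EREG fell by 1.10 (0.15, adjusted p = 0.0124 by the same edgeR test). Without double line replicate 2 it was -0.97, and without double line replicate 3 it was -1.13 with an adjusted p above the threshold, so EREG passed in 4 of 6 fits that each left out 1 library. Of 8 members tested, 3 were called, where 184 of all 14023 genes were called (1.31 percent), 92 higher and 92 lower. That number of genes was 30 without double line day 0 replicate 3 and 366 without WT day 0 replicate 3. Of the 3 members called, EREG and AREG were chosen on day 4 libraries of the same lines. AREG in the double line was at -1.84 against WT at day 4, close to its day 0 value, so this count is not independent of the choice. TGFA (-0.28), BTC (-0.43), EGFR (0.34), ERBB2 (0.27) and ERBB3 (-0.27) were not called. The 8 epithelial markers summed to 6489 to 7373 CPM in the double line and to 4922 to 5765 in WT. The 7 that could be fitted had a median of 0.36, and 0 were called. Their part in the ligand values was not tested.

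UHRF1-AID before auxin had less AREG than WT in every library, though its test did not pass after adjustment. AREG was at -1.04 (standard error 0.14, unadjusted p = 4.47e-05, adjusted p = 0.310 by edgeR with Benjamini-Hochberg adjustment). EREG was at -0.48 and HBEGF at -0.51. By edgeR, 0 of 8 members and 0 of 13894 genes were called (0 percent). At an unadjusted p under 0.05 there were 512 genes and 2 members, EREG and AREG, and DESeq2 called 7 genes, with AREG (-1.05) among them. AREG was also called by edgeR when no genes were filtered out.

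DNMT1-AID before auxin had lower means of AREG and HBEGF than WT, and its 3 libraries spread widely. AREG was at -0.70 (standard error 0.39), HBEGF at -0.73 (0.24) and EREG at -0.29 (0.23). By edgeR, 0 of 8 members were called, with 1 of 13833 genes called (0.00723 percent). At an unadjusted p under 0.05 there were 711 genes and 1 member, HBEGF, and DESeq2 called 5 genes and no member. When the 3 libraries whose counts fell with gene length were left out, AREG was at -1.64 and HBEGF at -1.11, both were called, and so were 265 genes. That fit kept 1 library of DNMT1-AID, replicate 3, and assumes that it varies like the other groups.

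Over the 4 days of auxin, WT cells themselves had more TGFA, BTC and EGF. EREG and AREG were lower by description, and HBEGF and the 3 receptors were not called. WT has no degron, and its 2 days lie in different alignment folders. TGFA rose by 0.69 on the log2 scale (standard error 0.11, adjusted p = 0.00178 by edgeR with Benjamini-Hochberg adjustment), below the minimum of 1 for a call, in 3 of 3 libraries. BTC rose by 1.03 (0.17, adjusted p = 0.00230 by the same edgeR test) and EGF by 2.99 (0.52, adjusted p = 0.00289 by the same edgeR test), the latter from the few counts given above. BTC was at 0.97 without WT day 0 replicate 3 and at 0.90 without WT day 4 replicate 1, under the minimum (the former is 1 of the libraries whose counts fell with gene length), as it was at 0.96 with a gene length offset. EREG was at -0.84 and AREG at -0.43. Of 7 members open to a test, 2 were called, BTC and EGF, beside 1618 of 13601 genes (11.9 percent).

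In UHRF1-AID, with all 6 libraries from 1 alignment folder, EREG was far lower after 4 days of auxin while HBEGF, TGFA and BTC were higher. EREG was at -2.14 (standard error 0.20) and AREG at -0.96 (0.16). HBEGF rose by 1.28 (0.26, adjusted p = 0.00289 by edgeR with Benjamini-Hochberg adjustment), 3 of 3 libraries above day 0. TGFA rose by 0.97 (0.14, adjusted p = 0.000500 by the same edgeR test), and passed the minimum of 1 without day 0 replicate 1 (1.06), day 4 replicate 1 (1.01) or day 4 replicate 3 (1.05). BTC rose by 1.06 (0.28, adjusted p = 0.0112 by the same edgeR test), but was at 0.70 without day 4 replicate 2, at 0.99 with a gene length offset and at 0.995 when replicate number was a block. AREG was at -1.07 without day 0 replicate 3, -1.11 without day 4 replicate 2 and -1.01 with a gene length offset. EGF was at 1.34 and was called only without day 0 replicate 1 (2.64). Of the epithelial markers CDX2 rose by 1.30 and CDH1 by 1.08 (not without day 0 replicate 1 or day 4 replicate 2), and their part in these values was not tested. EGFR (0.29), ERBB2 (0.11) and ERBB3 (0.19) were not called. Of 7 members open to a test, 2 were called (HBEGF and BTC), beside 3149 of 14391 genes (21.9 percent).

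In DNMT1-AID, EREG was lower at day 4, AREG had no steady direction, and BTC and EGF were called higher. This line crosses the alignment folders, and 2 of its day 0 libraries are those whose counts fell with gene length. EREG was at -1.27 (standard error 0.23), at -0.99 without day 0 replicate 2 and at -0.69 without the libraries whose counts fell with gene length, and AREG was at -0.23 (0.45), between -0.55 and 0.34 when 1 library was left out. BTC rose by 1.41 (0.23, adjusted p = 0.000822 by edgeR with Benjamini-Hochberg adjustment), 3 of 3 libraries above day 0. ERBB2 rose by 0.82 (0.16, adjusted p = 0.00272 by the same edgeR test) and TGFA by 0.58 (0.12, adjusted p = 0.00280 by the same edgeR test), each below the minimum of 1. HBEGF rose by 0.76 (0.25, adjusted p = 0.0298 by the same edgeR test), and passed the minimum without day 0 replicate 2 (1.08) and without the libraries whose counts fell with gene length (1.17). EGF was at 1.92 and was called in 2 of 6 fits that each left out 1 library, those without day 0 replicate 2 or day 0 replicate 3. EGFR was at 1.10 (0.36, adjusted p = 0.0506 by the same edgeR test), and was called without day 0 replicate 3 (1.44) or day 4 replicate 3 (1.31), by DESeq2 (1.11) and with a gene length offset (1.14). EGF was not called by DESeq2 (1.96) or without the libraries whose counts fell with gene length (2.28). Of 7 members open to a test, 2 were called (BTC and EGF), beside 2119 of 13850 genes (15.3 percent). The fibroblast marker COL1A1 rose by 2.18 (adjusted p = 0.0151 by the same edgeR test), though not without day 4 replicate 2, and the 4 fibroblast markers summed to 1.47 to 5.57 CPM at day 0 and 9.03 to 13.9 at day 4.

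Over 4 days of auxin the double line had the steepest day effect of the 4 lines for EREG and for HBEGF, in opposite directions. AREG, already low at day 0, was lower by less. EGFR fell as well. EREG was at -2.47 (standard error 0.13) and AREG at -0.53 (0.15). HBEGF rose by 2.09 (0.15, adjusted p = 1.39e-09 by edgeR with Benjamini-Hochberg adjustment), BTC by 1.53 (0.27, adjusted p = 0.000539 by the same edgeR test) and TGFA by 0.80 (0.08, adjusted p = 1.91e-07 by the same edgeR test), each with 3 of 3 libraries above day 0. EGFR fell by 0.54 (0.10, adjusted p = 0.000214 by the same edgeR test), below the minimum, with 3 of 3 libraries below day 0, and was at -0.33 with a gene length offset. ERBB2 (0.09) and ERBB3 (-0.16) were not called, and EGF was too low to test. Of 6 members open to a test, 2 were called (HBEGF and BTC), beside 3903 of 14698 genes (26.6 percent), in a comparison that crosses the folders. COL1A1 rose by 1.97 (adjusted p = 1.45e-09 by the same edgeR test) in 6 of 6 fits that left out a library, and the fibroblast markers summed to 4.60 to 5.05 CPM at day 0 and 16.1 to 20.0 at day 4. The epithelial marker CDX2 rose by 1.23 in 6 of 6 such fits. The 7 epithelial markers that could be fitted had a median of 0.05. All 8 summed to 6489 to 7373 CPM at day 0 and to 5443 to 6162 at day 4. The part of these markers in the ligand values was not tested.

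**Figure D3:**
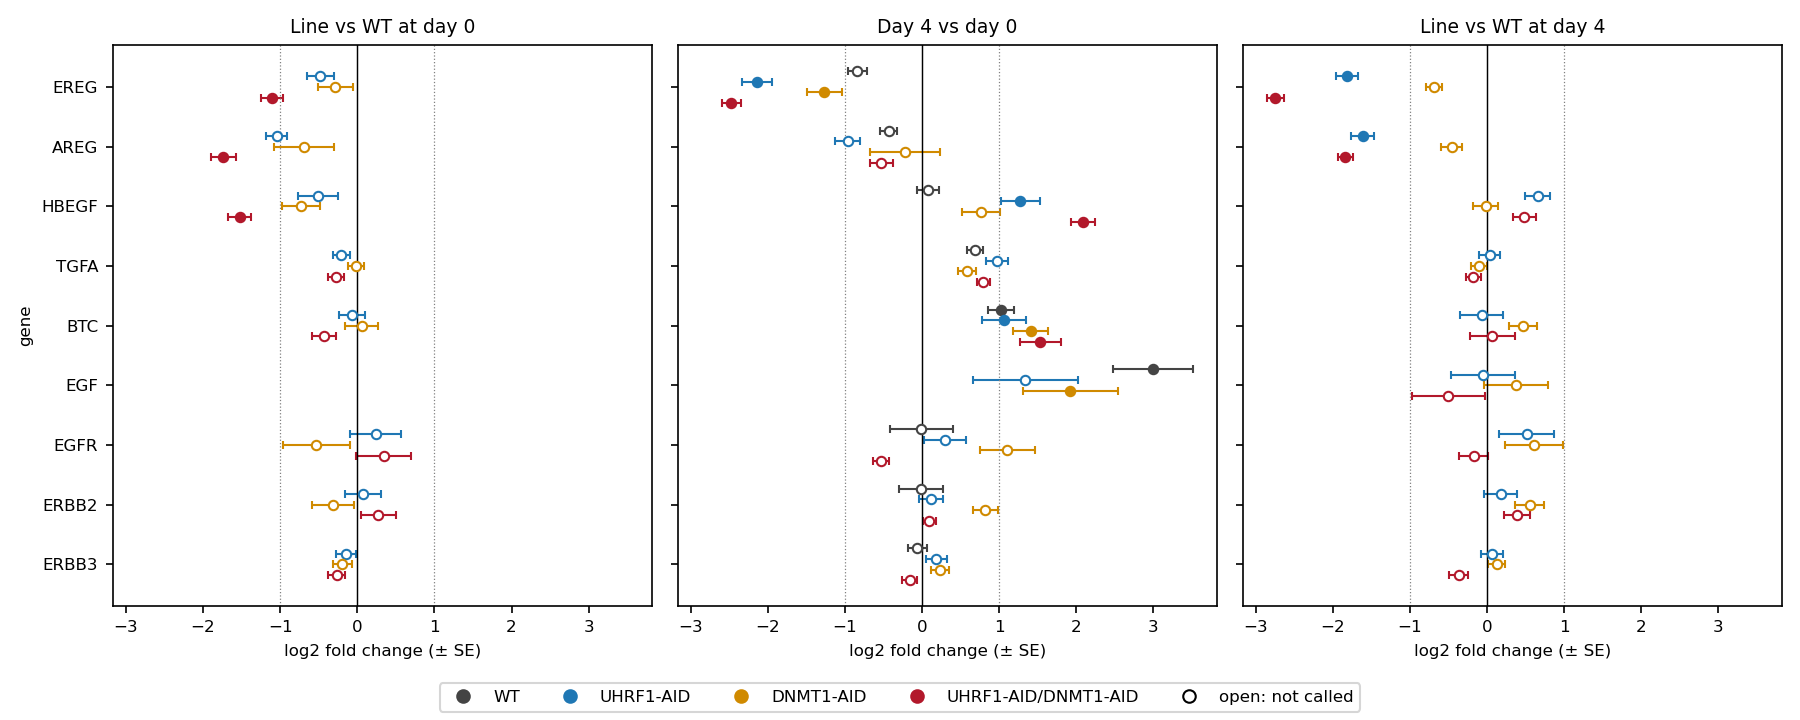
Log2 fold changes with standard errors for the 9 members that could be fitted: lines against WT before auxin, day 4 minus day 0 within a line, and lines against WT after auxin. Filled points were past the thresholds, which is a description for lines against WT after auxin and for EREG and AREG by day, and dotted lines mark a log2 fold change of 1 in either direction.

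The day effect of each degron line was then compared with the day effect of WT. HBEGF rose more in the 2 lines that lose UHRF1 than in WT. The day effect of EREG was below that of WT in the same 2 lines, by description. For DNMT1-AID and the double line a shift between alignment folders cancels in this difference, and for UHRF1-AID it does not. HBEGF in the double line differed by 2.00 (standard error 0.30, adjusted p = 0.000244 by edgeR with Benjamini-Hochberg adjustment), and was called in 12 of 12 fits that each left out 1 library. In UHRF1-AID it differed by 1.14 (0.29, adjusted p = 0.0218 by the same edgeR test), called in 8 of 12, and lost without WT day 0 replicate 1 (1.11), UHRF1-AID day 0 replicate 2 (0.94), UHRF1-AID day 0 replicate 3 (1.04) or WT day 4 replicate 2 (1.11). In DNMT1-AID it was at 0.67 (0.30, adjusted p = 0.260 by the same edgeR test). EREG was at -1.36 (0.28) for UHRF1-AID, -0.44 (0.28) for DNMT1-AID and -1.64 (0.28) for the double line, and AREG at -0.59 (0.40), 0.19 (0.40) and -0.10 (0.40). With 1 library left out, EREG in DNMT1-AID ran from -0.66 to -0.14, AREG in DNMT1-AID from -0.13 to 0.78 and AREG in the double line from -0.23 to 0.08. The epithelial marker KRT19 was at -1.04 in the double line, in 10 of 12 fits (not without WT day 0 replicate 2 or double line day 4 replicate 2). It was the 1 epithelial marker called of the 7 that could be fitted, whose median was -0.16. CDX2 went the other way, from 23.1 to 52.7 CPM in the double line and from 17.5 to 21.3 in WT. The part of these markers in the ligand values was not tested.

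Among the receptors no difference in day effect was called with all libraries and the expression filter. In DNMT1-AID, EGFR was at 1.10 (standard error 0.52, adjusted p = 0.300 by edgeR with Benjamini-Hochberg adjustment) and was called only when no genes were filtered out. ERBB2 in the same line was at 0.83 (0.29, adjusted p = 0.177 by the same edgeR test) and was called only without WT day 0 replicate 3 (1.08). Of 7 members open to a test, UHRF1-AID had 1 called (HBEGF) beside 443 of 15699 genes (2.82 percent), and the double line 1 (HBEGF) beside 701 genes (4.47 percent). DNMT1-AID had 0 of 7 called by edgeR beside 39 genes (0.248 percent), which became 3 without WT day 0 replicate 2 and 495 without DNMT1-AID day 0 replicate 3, with 2617 genes and 2 members, HBEGF and ERBB2, at an unadjusted p under 0.05, and DESeq2 called 152 genes and no member.

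At day 4, EREG and AREG were lower than in WT in all 3 depleted lines, and least so in DNMT1-AID. EREG was lowest in the double line, while the AREG libraries of the double line and UHRF1-AID overlapped. HBEGF was above WT in the 2 lines that lose UHRF1 and level with WT in DNMT1-AID. These values are a description, since EREG and AREG were chosen for this contrast, and the 3 comparisons share the same 3 WT libraries. In UHRF1-AID, EREG was at -1.82 (standard error 0.15), AREG at -1.61 (0.15) and HBEGF at 0.66 (0.16), across the alignment folders. In DNMT1-AID, EREG was at -0.69 (0.10), AREG at -0.46 (0.13), HBEGF at -0.02 (0.16), EGFR at 0.61 (0.37), ERBB2 at 0.55 (0.19) and BTC at 0.47 (0.18). In the double line, EREG was at -2.74 (0.11), AREG at -1.84 (0.10), HBEGF at 0.48 (0.15), ERBB2 at 0.39 (0.17), ERBB3 at -0.37 (0.12), TGFA at -0.18 (0.10) and EGFR at -0.17 (0.19). Over all genes, edgeR put past the thresholds 975 of 13958 for UHRF1-AID (6.99 percent), 349 of 13582 for DNMT1-AID (2.57 percent, or 222 genes without WT day 4 replicate 2 and 822 without WT day 4 replicate 3) and 1663 of 14219 for the double line (11.7 percent). Nothing is read from the members beside these shares.

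These values rest on library totals adjusted by TMM, and the spike-in counts allow another scaling for the 3 day 4 comparisons whose libraries all hold them. Scaled by ERCC, the median of all genes moved to -0.35 in DNMT1-AID and to -0.49 in the double line against WT. The source of this shift was not tested, and fewer cells and less RNA per cell cannot be told apart. ERCC counts at day 4 were 0.891 to 1.44 percent in WT. They were 1.34 to 1.41 percent in DNMT1-AID and 1.48 to 1.65 percent in the double line. In DNMT1-AID EREG was then at -1.05, AREG at -0.81, HBEGF at -0.36, EGFR at 0.30, ERBB2 at 0.25 and BTC at 0.12. In the double line EREG was at -3.27, AREG at -2.36, TGFA at -0.70, ERBB3 at -0.90 and EGFR at -0.64, while HBEGF went from 0.48 to -0.02, ERBB2 from 0.39 to -0.08 and BTC from 0.07 to -0.45, so their direction depends on the scaling. For the double line against DNMT1-AID, with only these 6 libraries in the fit, the median of all genes was -0.16, EREG was at -2.22, AREG at -1.54, HBEGF at 0.34, ERBB3 at -0.66 and EGFR at -0.95.

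The fibroblast marker COL1A1 was also higher in the double line at day 4 than in WT. The 4 fibroblast markers summed to between 16.1 and 20.0 CPM in the double line at day 4 and to between 3.32 and 8.66 in WT at day 4, with 9.03 to 13.9 for DNMT1-AID and 4.23 to 11.8 for UHRF1-AID. COL1A1 was at 1.64 (1.02 for DNMT1-AID and 0.45 for UHRF1-AID, not past the thresholds), the 1 gene of that list that could be fitted, and CDX2, an intestinal epithelial marker, was at 1.32. The 7 epithelial markers that could be fitted had a median of -0.10, and all 8 summed to 5443 to 6162 CPM in the double line and 7558 to 7818 in WT at day 4. Whether any part of the ligand values comes with these markers was not tested.

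Among the depleted lines at day 4, EREG fell in steps from DNMT1-AID through UHRF1-AID to the double line, and AREG was lower in the 2 lines that lose UHRF1 than in DNMT1-AID. For these 2 genes that is a description. Within 1 folder, the double line against DNMT1-AID had EREG at -2.06 (standard error 0.13) and AREG at -1.38 (0.16). HBEGF rose by 0.50 (0.15, adjusted p = 0.0408 by edgeR with Benjamini-Hochberg adjustment) and ERBB3 fell by 0.49 (0.13, adjusted p = 0.0262 by the same edgeR test), both below the minimum of 1. Of 7 members open to a test, edgeR and DESeq2 called 0, beside 938 of 14746 genes (6.36 percent) by edgeR and 1218 by DESeq2, with 3633 genes and 2 members, HBEGF and ERBB3, at an unadjusted p under 0.05. CDX2 was at 1.10 here, though not called without double line day 4 replicate 1. The 7 epithelial markers that could be fitted had a median of -0.13. All 8 summed to 5443 to 6162 CPM in the double line and to 7705.5 to 8956 in DNMT1-AID. The part of these markers in the ligand values was not tested. UHRF1-AID against DNMT1-AID, across the folders, had EREG at -1.16 (0.13), AREG at -1.18 (0.16) and HBEGF at 0.65 (0.14, adjusted p = 0.00749 by the same edgeR test). In that comparison edgeR and DESeq2 again called 0 of 7 members, beside 1028 genes (6.97 percent) by edgeR and 1132 by DESeq2, with 5323 genes and 2 members, HBEGF and ERBB2, at an unadjusted p under 0.05.

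The double line against UHRF1-AID, also across the folders, had EREG at -0.90 (standard error 0.13), or -1.04 without UHRF1-AID day 4 replicate 3, and AREG at -0.20 (0.15), both as a description. HBEGF was at -0.14 and ERBB3 at -0.40 (0.13, adjusted p = 0.0405 by edgeR with Benjamini-Hochberg adjustment). The fibroblast marker COL1A1 was at 1.21 (adjusted p = 0.0155 by the same edgeR test), in 4 of 6 fits that left out a library and not without UHRF1-AID day 4 replicate 2 or double line day 4 replicate 3. By edgeR 0 of 7 members open to a test were called beside 799 genes (5.42 percent), with 5278 genes and 1 member, ERBB3, at an unadjusted p under 0.05, and DESeq2 called 841 genes and no member.

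Around the ligands and receptors, 5 lists of pathway genes were written down: neuregulins with ERBB4 (5 genes), sheddases and iRhoms that cut or carry ligands (11), receptor regulators (17), the RAS to ERK core (22) and ERK feedback and output genes (23). At day 0, 1 receptor regulator and 1 feedback gene were lower in the double line than in WT, 2 of 72 list genes tested beside 1.31 percent of all genes, with 26 of the 72 and 2836 of all 14023 genes at an unadjusted p under 0.05. ERRFI1, a feedback inhibitor that binds the EGFR kinase, fell by 1.32 (standard error 0.18, adjusted p = 0.0126 by edgeR with Benjamini-Hochberg adjustment), though not without double line replicate 2 or replicate 3. DUSP5, a nuclear ERK phosphatase, fell by 1.28 (0.12, adjusted p = 0.00640 by the same edgeR test) in 6 of 6 fits. Of 72 genes tested over the 5 lists, edgeR and DESeq2 called 0 in UHRF1-AID at day 0 (4 at an unadjusted p under 0.05) and 0 in DNMT1-AID (6 at an unadjusted p under 0.05). ERRFI1 means in CPM were 2078 for WT, 1493 for UHRF1-AID, 1614 for DNMT1-AID and 839.9 for the double line at day 0, and 1168, 543, 1091 and 324 at day 4.

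Day 4 against day 0, WT itself had 4 of 23 ERK feedback and output genes lower (DUSP6, ETV1, ETV5, MYC) and 1 higher (SPRED3, in 1 of 6 fits that left out a library). DUSP6, the cytoplasmic ERK phosphatase, was at -1.68 and the ETS factor ETV1 at -1.69 in WT. MYC was at -1.26 in WT, -1.07 in DNMT1-AID (called in 1 of 6 fits that left out a library), -2.17 in UHRF1-AID and -2.39 in the double line. In UHRF1-AID 6 of 23 fell (EGR1, FOSL1, IER3, MYC, PHLDA1, SPRY1) and 2 rose (EPHA4, FOS), in DNMT1-AID 4 fell (DUSP6, ETV1, MYC, SPRY1) and 3 rose (EGR1, EPHA4, SPRED3), and in the double line 5 fell (DUSP4, ETV1, MYC, PHLDA1, SPRY1) and 1 rose (SPRED3). EGR1 and PHLDA1 in UHRF1-AID were lost without day 4 replicate 2, FOSL1 without that library or day 0 replicate 1, DUSP4 in the double line without day 0 replicate 1, and SPRY1 in DNMT1-AID passed in 3 of 6 fits. Of all genes, 11.9 percent were called for WT, 21.9 for UHRF1-AID, 15.3 for DNMT1-AID and 26.6 for the double line. The list's median log2 fold change was -0.30 for WT, -0.54 for UHRF1-AID, 0.04 for DNMT1-AID and -0.15 for the double line.

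Of receptor regulators over the same days, CD82 rose and SH3KBP1 fell in WT, CD82 rose and ERRFI1 fell in UHRF1-AID, and CBLC rose in DNMT1-AID. CD82 rose in the double line while ERRFI1, LRIG3 and SH3KBP1 fell. Of these, the calls in WT were lost without day 4 replicate 2 (CD82) or day 0 replicate 2 (SH3KBP1), CBLC without day 4 replicate 2, and CD82 in the double line without day 0 replicate 1 or day 4 replicate 2. Of sheddases and iRhoms, RHBDF1 (iRhom1), a carrier of the protease ADAM17, rose by 1.07 in UHRF1-AID (not without UHRF1-AID day 0 replicate 1 or day 4 replicate 3), 1.88 in DNMT1-AID and 1.59 in the double line. Its mean also went from 5.97 to 10.0 CPM in WT, beside 9.94, 12.8 and 12.9 at day 4 in those lines. In none of them did edgeR call its day effect different from that of WT. FRMD8, which stabilises iRhoms, rose by 1.15 in UHRF1-AID, and in WT 0 of 8 tested genes of this list were called by edgeR or DESeq2, with 4 of them and 6285 of all 13601 genes at an unadjusted p under 0.05. ADAM8 rose in UHRF1-AID and the double line from near 0, with means of 0.300 and 0.218 CPM at day 0 and 1.86 and 2.96 at day 4, and RHBDL2 reached 0.830 in UHRF1-AID. Of the RAS to ERK core, GAB1 rose and KSR2 fell in UHRF1-AID, GAB1, GAB2 and KSR1 rose in DNMT1-AID (GAB1 and GAB2 each in 1 of 6 fits that left out a library, KSR1 in 4 of 6), and GAB2 rose and PTPN11 fell in the double line. Of neuregulins, NRG2 rose in the double line, in 3 of 6 fits that left out a library, and it and NRG4 were the only ones high enough to fit.

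Set against the day effect of WT, FOS rose more in UHRF1-AID (1.30, standard error 0.30, adjusted p = 0.0143 by edgeR with Benjamini-Hochberg adjustment). In the double line ETV5 was at 1.15 (0.26, adjusted p = 0.00737 by the same edgeR test), MYC at -1.14 (0.28, adjusted p = 0.0107 by the same edgeR test) and LRIG3 at -1.29 (0.25, adjusted p = 0.00244 by the same edgeR test). ADAM8 and NRG2, both near 0 in WT at day 4, were also called higher in the double line, ADAM8 in 11 of 12 fits (lost without WT day 0 replicate 2) and NRG2 in 4 of 12. For this difference edgeR and DESeq2 called 0 of 74 list genes in DNMT1-AID, with 10 of them and 2617 of all 15699 genes at an unadjusted p under 0.05.

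Against WT at day 4, and again as a description, ERRFI1 was lower in UHRF1-AID (-1.12, not past the thresholds without its day 4 replicate 3) and the double line (-1.83). In UHRF1-AID FOSL1 (-1.17) and MYC (-1.07) were lower and FOS (1.23, not past them without the same library) and ADAM8 (means of 1.86 and, for WT, 0.101 CPM) were higher. In the double line DUSP4 (-1.55), DUSP5 (-1.09, not past them without WT day 4 replicate 2), FOSL1 (-1.31), IER3 (just past the minimum, and not without WT day 4 replicate 2 or double line day 4 replicate 1), MYC (-1.20) and PHLDA1 (-1.31) were lower, 6 of the 23 feedback and output genes, whose median was -0.21, beside 11.7 percent of all genes. LRIG3, of a family of receptor regulators, was lower by just over the minimum (in 3 of 6 fits), and GAB2 (1.20, in 2 of 6), NRG2 (1.68, in 4 of 6) and ADAM8 were higher in that line. For DNMT1-AID 0 of 71 list genes passed the thresholds by edgeR or DESeq2, beside 2.57 percent of all genes by edgeR, with 16 of the 71 and 3280 of all 13582 genes at an unadjusted p under 0.05.

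Between depleted lines at day 4, ERRFI1 was lower than in DNMT1-AID in UHRF1-AID (-1.05, in 3 of 6 fits that left out a library) and in the double line (-1.74, in 6 of 6). UHRF1-AID against DNMT1-AID also had FOS higher (1.32), EGR1 (-1.31), FOSL1 (-1.04), MYC (-1.08) and KSR2 (-1.35) lower, and ADAM8 higher, with EGR1, FOSL1 and MYC each in 3 of 6 fits. The double line against DNMT1-AID had FOSL1 (-1.16) and MYC (-1.19) lower, each in 2 of 6 fits, and ADAM8 higher. Against UHRF1-AID the double line had FOS (-1.05, in 4 of 6 fits) and ETV1 (-1.49, in 1 of 6) lower and EGR1 (1.15, in 1 of 6) higher, and SHC1 lower by just over the minimum (in 3 of 6).

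Among the neighbours of EREG on chromosome 4 outside the members, few genes were expressed. Within 1000 kb of its start lie 42 genes, EREG itself, EPGN, AREG, BTC and a cluster of CXC chemokines among them, 18 of the 42 without a count in any library and 8 with a mean of at least 1 CPM (EREG, AREG, BTC, RASSF6, CXCL8, MTHFD2L, PARM1 and LINC02562). At day 0 the median log2 fold change of those that could be fitted, members left out, was -0.16 for UHRF1-AID (6 genes), 0.02 for DNMT1-AID (6) and -0.31 for the double line (7) against WT. At day 4 against day 0, CXCL8 (interleukin 8) rose by 1.65 for UHRF1-AID, 1.52 for DNMT1-AID and 2.65 for the double line, and CXCL1 rose by 2.12 for UHRF1-AID. The unnamed gene ENSG00000249942 was at -2.97, -2.00 and -2.79 in the same 3 lines, and at -0.86 in WT, where it was not called. Its differences from the day effect of WT were -2.16, -1.15 and -1.94, none of them called. It and CXCL1 were near 0, with means of 0.606 and 0.516 CPM and at most 29 and 34 counts. LINC02562 rose by 1.20 in the double line. Beyond the day effect of WT, which was 0.64, CXCL8 rose by 2.00 in the double line. Against WT, CXCL8 in the double line was at -1.24 at day 0 and at 0.77 at day 4, neither past the thresholds. PARM1 was at -1.12 in the double line against WT at day 4. CXCL1 was at 1.69 in UHRF1-AID against DNMT1-AID at day 4.

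**Figure D4:**
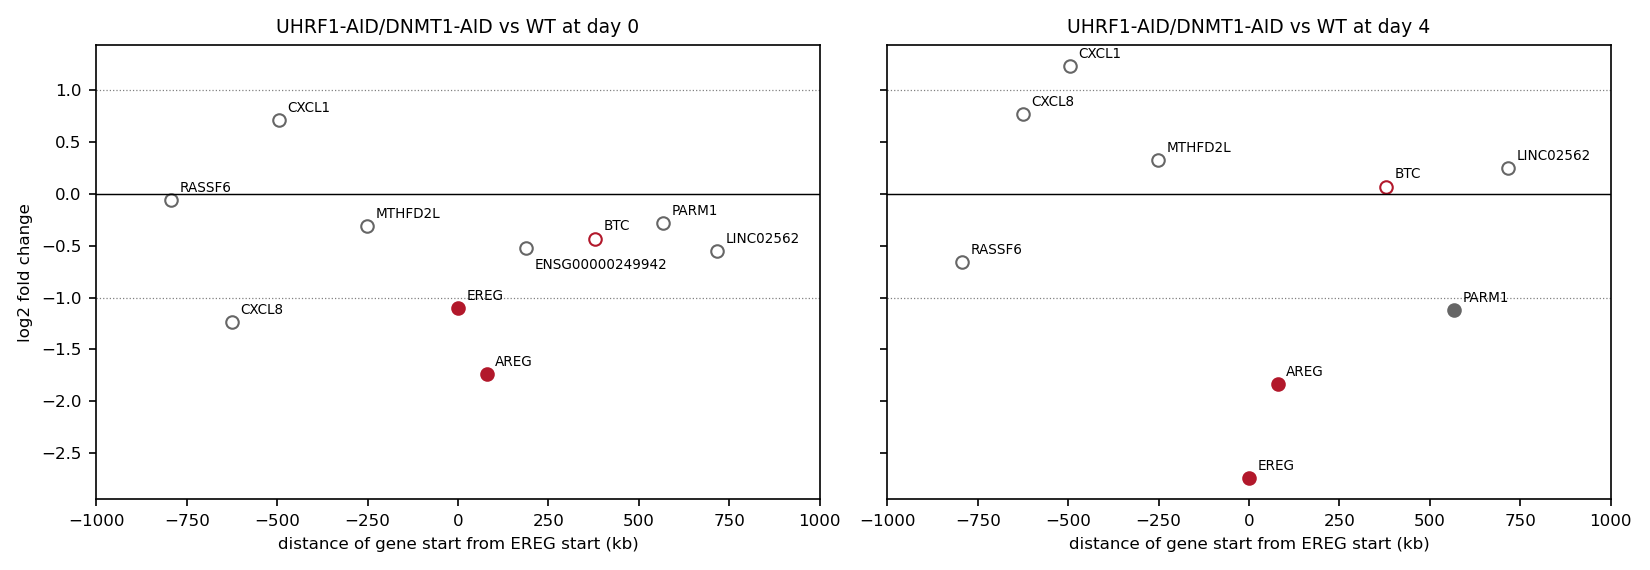
Log2 fold change of the double line over WT, before auxin and after 4 days, for genes within 1000 kb of the EREG start, by distance in kb. Members are red, and filled points were past the thresholds, which after auxin is a description.

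Over the 24 libraries and 10482 expressed genes, the transcripts whose levels ran most alike with EREG were GPD2 (correlation 0.963), ERO1A (0.957), PHLDA1 (0.957), GTF2H3 (0.954) and IVNS1ABP (0.9498). For AREG they were DUSP5 (0.902), MT1E (0.898), GRB7 (0.896), ERRFI1 (0.895) and MYEOV (0.889). EREG and AREG correlated at 0.835. PHLDA1, DUSP5 and ERRFI1 belong to the feedback and regulator lists above, and the correlations carry the differences between lines, days and folders, so no test is attached to them.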

How the data were processed

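PolyA RNA of 24 HCT116 libraries (4 lines, day 0 and day 4 of auxin, 3 libraries each) was sequenced by the authors in paired reads. According to the submitters' processing notes the authors aligned reads to hg38 with STAR and deposited raw counts per Ensembl gene from featureCounts, and the strand setting, the handling of reads with many matches and the annotation release are not stated. ERCC entries (92) were set aside, which left 58735 genes, and totals per library ran from 15824804 to 25073821. CPM were scaled to library totals adjusted by TMM over all 24 libraries, and TPM to the gene lengths in the files. The variance between pairs of replicates was 3.52 to 59.2 times what counting alone gives (chi-square per degree of freedom, 24 pairs).

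Each comparison was fitted in edgeR 4.0.16 (R 4.3.3) with TMM scaling, its expression filter, robust quasi-likelihood tests and Benjamini-Hochberg adjustment over all tested genes. To be called, a gene had to have a log2 fold change beyond 1 in either direction and an adjusted p under 0.05. The fits compared degron lines with WT before auxin and after it, the 2 days within a line, the difference of a line's day effect from that of WT, and the depleted lines against one another at day 4. The p-values measure the spread between libraries, and the paper reports 3 clones of each degron line as its biological replicates, while the labels do not say which clone a replicate number stands for. The 10 members, and the 5 lists of pathway genes and the marker lists, were chosen with earlier results of these data known. Named genes are the members, and in each list those that were called (for markers, beside the members they moved with). No p-value is given for any gene in a line against WT at day 4, or for EREG and AREG against day 0 or between depleted lines at day 4, where a test had been planned.

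Libraries with the same replicate number were checked for pairing: correlations of their deviations ran from -0.845 to 0.537 over 13 comparisons, and all 3 were over 0.1 in 2 of them, day 4 against day 0 in UHRF1-AID and in the double line. Promoter windows of 250 bases were read from RefSeq GRCh38.p14. The fits were tested on simulated data.

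Alternatives fixed before these fits, with earlier results of these data known, were RLE scaling, no filter, a joint fit of all 24 libraries (or a fit of 12 for a difference of day effects), a minimum of 10 counts in each library, replicate number as a block, DESeq2 1.42.0, no minimum fold change, an adjusted p under 0.01, a gene length offset and leaving out each library in turn (93 fits). Added later were scaling by ERCC counts for the 3 comparisons that allow it, and leaving out the 3 day 0 libraries whose counts fell with gene length, both after seeing the data. Where that or leaving out 1 library left an arm with a lone library, it was assumed to vary like the other groups. EPGN was too low to fit.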

Additional observations from a re-analysis of the deposited data

Results flagged for a closer look

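HBEGF differed in its day effect between WT and the 2 lines that lose UHRF1, by a test of the difference itself. In the double line the difference was 2.00 on the log2 scale (standard error 0.30, adjusted p = 0.000244 by edgeR with Benjamini-Hochberg adjustment), and it was called in 12 of 12 fits that each left out 1 library. In UHRF1-AID it was 1.14 (0.29, adjusted p = 0.0218 by the same edgeR test), called in 8 of 12 such fits and lost without WT day 0 replicate 1 (1.11), UHRF1-AID day 0 replicate 2 (0.94), UHRF1-AID day 0 replicate 3 (1.04) or WT day 4 replicate 2 (1.11), and also lost when the 12 libraries of WT and UHRF1-AID were fitted alone (1.16). In DNMT1-AID it was 0.67 (0.30, adjusted p = 0.260 by the same edgeR test), between 0.50 and 1.01 when 1 library was left out. HBEGF in the double line was at -1.53 against WT before auxin and, as a description, at 0.48 after it (-0.02 with ERCC scaling). The day 4 libraries of WT and UHRF1-AID come from different alignment folders, which cannot be told apart from this difference.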

How the results depend on the processing

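Several libraries and settings moved the number of members called, in which EREG and AREG are a description at day 4 against day 0, in the difference of day effects and between depleted lines and, like every member, against WT at day 4. Without a minimum fold change it was 5 for WT day 4 against day 0 (2 with it), 5 for UHRF1-AID (3), 6 for DNMT1-AID (3) and 6 for the double line (3). At day 4 it was then 1 for DNMT1-AID (0) and 4 for the double line (2) against WT, 4 for the double line against DNMT1-AID (2) and 2 for it against UHRF1-AID (0). Without a filter it was 1 for UHRF1-AID against WT at day 0 (0) and 1 for the difference of day effects in DNMT1-AID (0), and DESeq2 gave 1 for UHRF1-AID at day 0. ERCC scaling gave 1 for DNMT1-AID against WT at day 4. For the difference of day effects in UHRF1-AID it was 1 with 12 libraries in the fit and 1 at an adjusted p under 0.01 (2). For WT day 4 against day 0 it was 1 with at least 10 counts in every library, 1 with a gene length offset and 1 without the 3 libraries whose counts fell with gene length, which gave 2 for DNMT1-AID against WT at day 0 (0). Leaving out 1 library gave 1 to 2 for WT day 4 against day 0, 3 to 5 for UHRF1-AID and 2 to 4 for DNMT1-AID, 1 to 2 for the difference of day effects in UHRF1-AID and 0 to 1 in DNMT1-AID, and 0 to 1 for the double line against UHRF1-AID at day 4.

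Of 1065 fold changes of single members under settings that refit the data (the changed thresholds not among them), 13 newly passed, 8 no longer passed and 26 changed sign with neither value called. Of 1002 with 1 library left out, 11 newly passed, 14 no longer passed and 56 changed sign uncalled. Counts over all genes moved by more than 1.5 times in 14 of 16 comparisons without a minimum fold change, 10 with at least 10 counts in every library, 8 at an adjusted p under 0.01, 7 without a filter, 4 with DESeq2, 2 with replicate number as a block and 0 with RLE scaling. ERCC scaling turned the share of called genes that were higher in the double line than in WT at day 4 from 78.7 to 35.5 percent, in DNMT1-AID against WT from 89.1 to 55.2 percent, and in the double line against DNMT1-AID, with UHRF1-AID also out of the fit, from 86.6 to 74.1 percent. With replicate number as a block, BTC in UHRF1-AID day 4 against day 0 was at 0.995, under the minimum.

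The groups hold 3 libraries each and the day 4 libraries of 3 lines share an alignment folder that no day 0 library has. EREG and AREG were picked from these libraries, so their size at day 4 is a description. These libraries measure only transcripts, so ligand protein, shedding and receptor activity were not tested here, and methylation data of the study were not used.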
